A study of Mus musculus with 2 samples.

Results

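The genes described here are the amino acid and neurotransmitter transporters of the solute carrier (Slc) families 1, 3, 6, 7, 17, 32, 36 and 38. Their transcripts were measured by mRNA sequencing in mouse cell lines that differ in the huntingtin gene. Members were taken by symbol, as rows of the gene table whose name begins with Slc1a, Slc3a, Slc6a, Slc7a, Slc17a, Slc32a, Slc36a or Slc38a and a number. This gave 68 of 23176 genes. One of the 68, Slc7a6os, is named for lying opposite Slc7a6 and is not itself a transporter.

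STHdhQ7 has the genotype HdhQ7/Q7 and STHdhQ111 the genotype HdhQ111/Q111, so each line carries 1 form of huntingtin on both alleles, with a longer CAG tract in the second. Both derive from embryonic day 14 striatum of 129SvEv/CD1 mice and were used at fewer than 15 passages. They grew at 33 °C and spent the last 2 days at 39 °C so that division would stop. Each line is a single source, so huntingtin genotype and the separate history of the line cannot be told apart. The sample titles name 3 replicates per line, and the values analysed are the authors' single combined value per line.

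Every level below is FPKM, that is, fragments scaled to transcript length and to the number of mapped fragments, so levels can be set against each other between genes. The values carry no replicate spread of their own, and the depth of the libraries is unknown. A gene is called when the authors' deposited table gives it a q of 0.05 or less, from their Cuffdiff test and adjusted over 12740 tested genes. The standard error quoted with a log2 fold change is the one that this table implies (fold change divided by test statistic). In bulk RNA, fewer cells making a transcript and less transcript per cell cannot be told apart.

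Amino acids cross membranes on several carrier families that overlap in substrate. Slc1 proteins take up glutamate or exchange neutral amino acids, and Slc7 light chains work as heterodimers with an Slc3 heavy chain. Slc38 carriers move glutamine and other small neutral amino acids, and Slc6 carriers couple GABA, glycine, taurine, creatine or monoamines to sodium and chloride. Slc32 and some Slc17 proteins fill vesicles, other Slc17 proteins are anion carriers of lysosomes, kidney or liver, and Slc36 proteins are proton-coupled. In the striatum, glutamate arrives from cortex and thalamus, is cleared by glial uptake, and acts on GABA-releasing projection neurons.

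Few markers of mature neural cells were present. Of 7 neuronal markers in the table, 5 were under 0.1 FPKM in both lines, and the summed level was 2.75 FPKM in STHdhQ7 and 3.72 FPKM in STHdhQ111, most of it Tubb3. The 7 GABA neuron and striatal markers summed to 0.354 and 1.60 FPKM, with Gad1 at 0.0257 and 0.0334 FPKM and the dopamine receptor gene Drd1a at 0 in both. Most of the sum in STHdhQ111 was Dlx5, the 1 tested gene of this list. It was listed at 0.0454 and 1.30 FPKM without being called (the authors' q = 0.102). The 8 astrocyte markers summed to 80.2 and 115 FPKM, most of it the gap junction gene Gja1, which was not called (59.7 and 103 FPKM, the authors' q = 0.190). Of 3 tested astrocyte markers 1 was called (33.3%, against 13.5% of all tested genes). This was the aldolase gene Aldoc, which fell from 9.18 to 2.29 FPKM (the authors' q = 0.00383). Aldh1l1 was listed at 10.4 and 9.29 FPKM, while Aqp4 was at 0 in both and Gfap at 0.138 and 0.0105 FPKM. The 6 mesenchymal markers summed to 637 and 2271 FPKM. Of 5 tested, 3 were called higher in STHdhQ111 (60%, against 6.35% of all tested genes), namely Col1a1, Col1a2 and Pdgfra. The untested Thy1 was listed at 0.0989 and 0 FPKM. The part of these markers in the transporter results was not tested.

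A test was deposited for 31 of the 68 members, and 8 were called, 5 higher and 3 lower in STHdhQ111. The 5 called higher were Slc1a1, Slc1a6, Slc17a7, Slc7a2 and Slc7a6, and the 3 called lower were Slc38a1, Slc6a6 and Slc7a4. That is 25.8% of tested members, against 13.5% of all tested genes, or 16.1% higher against 6.35% and 9.68% lower against 7.17%. Tested genes reached at least 0.505 FPKM in 1 of the lines, and all 37 untested members lay under 0.5 FPKM in both. A member under 0.5 FPKM in one line therefore had a test only through the other line. This holds for 8 of the 31, of which Slc1a1, Slc1a6 and Slc7a4 were called. As a description, 0.5 was added to each FPKM and the log2 ratio of STHdhQ111 to STHdhQ7 was taken. Its median was 0.12 over the tested members and -0.05 over all tested genes. This scale makes changes of scarce transcripts look smaller.

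**Figure D1:**
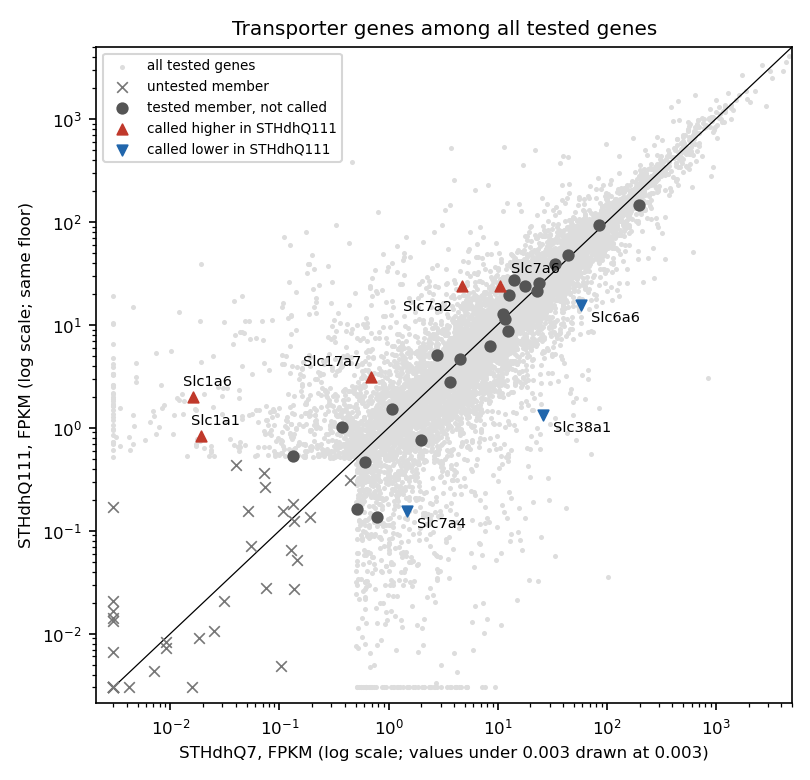
Each member's FPKM in STHdhQ7 (x axis) and STHdhQ111 (y axis), both on log scales, over all 12740 tested genes in grey. The 5 members called higher (upward triangles) and the 3 called lower (downward triangles) lie off the diagonal, the untested members (crosses) all lie under 0.5 FPKM, and most abundant members lie on it.

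Members of the glutamate pathway were low in both lines, and 3 of them were called higher in STHdhQ111, as were 6.35% of all tested genes. Slc1a1, the transporter EAAC1 (EAAT3) that takes glutamate and cysteine into neurons and epithelia, rose from 0.0192 to 0.839 FPKM. It lies on chromosome 19 at 28909656 to 28988450 of mm9, and the authors' deposited table puts its log2 fold change at 5.45 (implied standard error 1.38, Cuffdiff q = 0.00122). Slc1a6, the EAAT4 transporter known from cerebellar Purkinje cells, lies on chromosome 10 at 78243241 to 78277570 and rose from 0.0163 to 2.00 FPKM. For Slc1a6 the authors' deposited table gives a log2 fold change of 6.94 (implied standard error 1.86, Cuffdiff q = 0.00254). Both genes were close to 0 in STHdhQ7, so the size of their folds is loosely set. With a pseudocount of 1 FPKM the log2 ratio was 0.85 for Slc1a1 and 1.56 for Slc1a6. In the GENCODE M21 annotation (GRCm38), Slc1a1 overlaps 4430402I18Rik on the opposite strand, which was listed at 0.124 and 0.257 FPKM.

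The remaining Slc1 glutamate carriers did not pass the test or had none. The most abundant was Slc1a3, the astrocytic and radial glial transporter GLAST, with 2.79 FPKM in STHdhQ7 against 5.04 FPKM in STHdhQ111 (the authors' q = 0.278). Slc1a2, the GLT-1 transporter that clears most glutamate in the adult forebrain, was listed at 0.190 and 0.136 FPKM, without a test. The retinal transporter Slc1a7 was listed at 0.135 and 0.125 FPKM, also without a test. The summed level of the 5 glutamate uptake genes was 3.15 FPKM in STHdhQ7 and 8.14 FPKM in STHdhQ111. Slc1a3 made up 88.6% of that sum in STHdhQ7 and 61.9% in STHdhQ111, where Slc1a6 made up 24.6% and Slc1a1 10.3%.

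Among the vesicular glutamate transporters, which load glutamate into synaptic vesicles, 1 of 2 tested genes was called. The share over all tested genes was 13.5%, and 2 genes are too few to compare with it. Slc17a7 (VGLUT1), typical of cortical excitatory neurons, rose from 0.697 to 3.13 FPKM, and lies on chromosome 7 at 52419291 to 52431509. The rise of Slc17a7 was 2.17 on the log2 scale of the authors' deposited table (implied standard error 0.57, Cuffdiff q = 0.00201). Slc17a8 (VGLUT3), found in some cholinergic and other neurons, was listed at 0.517 and 0.161 FPKM without being called (the authors' q = 0.222). Slc17a6 (VGLUT2) was listed at 0.145 and 0.0515 FPKM, without a test. Slc32a1, which loads GABA and glycine into vesicles, was listed at 0 in both lines.

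The series title names DNA methylation, which acts on CG dinucleotides, so the 250 bases before the RefSeq start (GRCm38.p6) are shown for the 3 called glutamate genes, 5′ to 3′ on the gene's strand with each CG in capitals. Each of the 3 genes is on the plus strand. Their coordinates are on GRCm38, unlike the mm9 loci given for the genes. No methylation was measured in the data used here.
Slc1a1, chr19:28834885-28835134: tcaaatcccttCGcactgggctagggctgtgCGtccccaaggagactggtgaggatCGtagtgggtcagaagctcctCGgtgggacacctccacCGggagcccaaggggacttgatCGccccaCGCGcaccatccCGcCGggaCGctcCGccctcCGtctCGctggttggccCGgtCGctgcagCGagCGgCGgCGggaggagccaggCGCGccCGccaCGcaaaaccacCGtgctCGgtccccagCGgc
Slc1a6, chr10:78780246-78780495: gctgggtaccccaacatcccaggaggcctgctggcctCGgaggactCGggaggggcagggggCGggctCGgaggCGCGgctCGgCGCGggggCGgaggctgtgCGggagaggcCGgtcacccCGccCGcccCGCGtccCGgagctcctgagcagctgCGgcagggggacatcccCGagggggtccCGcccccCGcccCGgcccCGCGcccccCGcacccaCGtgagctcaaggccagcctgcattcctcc
Slc17a7, chr7:45163671-45163920: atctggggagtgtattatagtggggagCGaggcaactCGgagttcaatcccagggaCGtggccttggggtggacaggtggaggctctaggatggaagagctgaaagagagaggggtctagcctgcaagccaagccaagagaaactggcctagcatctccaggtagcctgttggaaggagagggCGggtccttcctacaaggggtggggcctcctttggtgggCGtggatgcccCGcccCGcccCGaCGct

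The windows of Slc1a1 and Slc1a6 held 27 and 26 CG dinucleotides, and 92.4% and 91.4% of the 32851 windows of the same length in the table held as many or fewer. The window of Slc17a7 held 9 (62.2% as many or fewer), and the median over all windows was 6. The AP-1 motif TGANTCA was absent from all 3 windows and occurs in 6.75% of windows. The Sox-type core ACAANG, searched on both strands, was found in the window of Slc17a7 and occurs in 36.3% of windows. These matches describe the letters only. A window was available for 23 of the 31 tested members and 4 of the 8 called ones, the 4th being Slc7a6 with 2 overlapping windows of 30 and 38 CG.

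System A, which takes up glutamine and small neutral amino acids, had 1 called gene among 2 tested. Of all tested genes 13.5% were called, and 2 genes are too few to set against that share. Slc38a1 (SNAT1), a sodium-coupled glutamine carrier of neurons, had 25.9 FPKM in STHdhQ7 but 1.32 FPKM in STHdhQ111, so it fell 19.6-fold. It lies on chromosome 15 at 96401849 to 96473344, and the authors' deposited table puts its log2 fold change at -4.29 (implied standard error 0.55, Cuffdiff q = 5.12e-13). It has the smallest q of the 31 tested members, and it went from the 6th most abundant of the 68 members in STHdhQ7 to the 23rd in STHdhQ111. Slc38a2 (SNAT2), the form known to be induced by amino acid shortage and by hypertonicity, was listed at 85.9 and 93.9 FPKM. It was not called, and in the authors' deposited table its log2 fold change was 0.13 (implied standard error 0.38, Cuffdiff q = 0.968). Slc38a4, an imprinted member of the same system, was listed at 0.0402 and 0.436 FPKM, below the level at which genes were tested.

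The 3 system A genes are neighbours on chromosome 15, and the values differed from gene to gene along it. The loci of Slc38a1 and Slc38a2 are 44478 bp apart, and Slc38a4 follows Slc38a2 after 295124 bp. On the far side of Slc38a1, Scaf11, which encodes a splicing-related factor, was listed at 24.7 FPKM in both lines. Beyond Slc38a4, the adhesion gene Amigo2 was listed at 1.93 and 0.859 FPKM without being called (the authors' q = 0.611). Slc38a1 was thus the 1 called gene of the 5, of which Slc38a4 had no test and could not be called. System A as a sum was 112 FPKM in STHdhQ7 and 95.7 FPKM in STHdhQ111, of which Slc38a2 made up 76.8% and 98.2%.

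**Figure D2:**
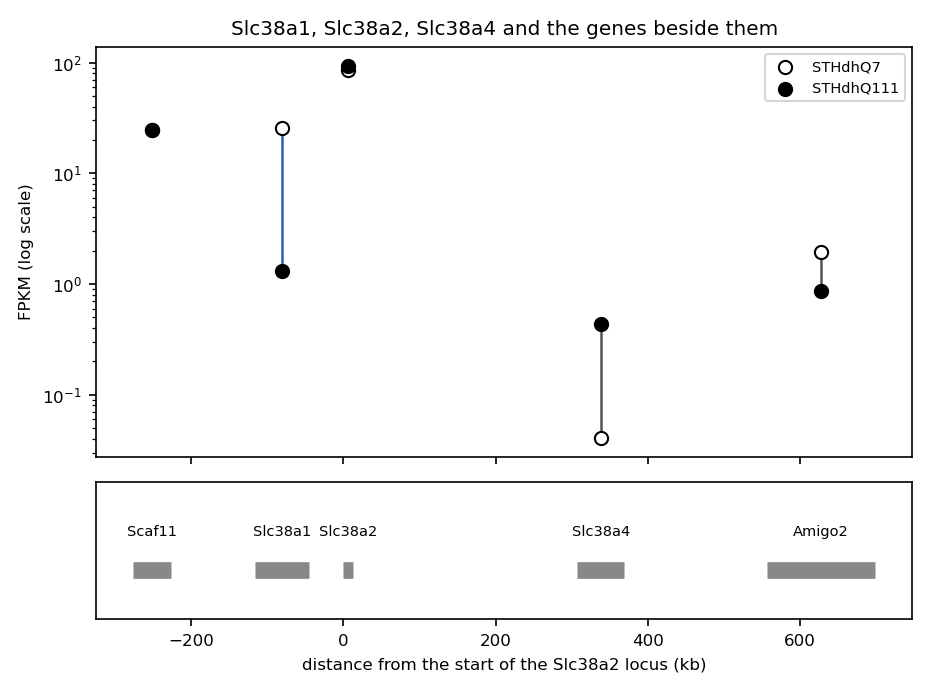
FPKM (log scale, top) of the 3 system A genes and the genes beside them in STHdhQ7 (open) and STHdhQ111 (filled), placed by distance in kb from the start of the Slc38a2 locus, with the loci drawn to scale below. Slc38a1 drops from 25.9 to 1.32 FPKM between Scaf11 and Slc38a2, whose points nearly coincide.

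The other Slc38 genes held no called member by the authors' Cuffdiff test, though Slc38a3 and Slc38a8 had an unadjusted p of 0.0481 and 0.0210. Slc38a3 (SNAT3), a system N carrier that moves glutamine in both directions in astrocytes and liver, was listed at 0.378 and 1.02 FPKM (the authors' q = 0.230). Its system N relative Slc38a5 was at 0.0158 and 0 FPKM, untested. The most abundant was Slc38a10, at 33.8 and 39.0 FPKM, followed by the lysosomal carrier Slc38a7 at 17.9 and 23.7 FPKM. Slc38a6 was listed at 4.48 and 4.70 FPKM, and Slc38a9, the lysosomal arginine sensor that signals to mTORC1, at 1.08 and 1.53 FPKM. Slc38a8 was listed at 0.132 and 0.529 FPKM (the authors' q = 0.124). All 6 of these tested genes had a higher value in STHdhQ111, as did 45.5% of all tested genes, and none of the 6 passed the test.

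Cationic amino acid transporters, which carry arginine, lysine and ornithine, stood in a different order in the 2 lines. Slc7a2 (CAT2), a carrier known for its induction in inflammation and its supply of arginine, rose from 4.75 to 24.1 FPKM. It lies on chromosome 8 at 41947721 to 42007424, and the authors' deposited table puts its log2 fold change at 2.34 (implied standard error 0.41, Cuffdiff q = 3.59e-07). Slc7a1 (CAT1), the broadly expressed form, was listed at 12.5 and 8.72 FPKM without being called (the authors' q = 0.547). Slc7a1 therefore led the group in STHdhQ7 with 63.3% of the summed level, and Slc7a2 led it in STHdhQ111 with 71.4%. The sum of the 5 genes was 19.8 FPKM in STHdhQ7 and 33.7 FPKM in STHdhQ111.

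Slc7a4, a relative of the cationic carriers without a settled substrate, went the other way. It fell from 1.47 to 0.155 FPKM, a change of -3.25 on the log2 scale of the authors' deposited table (implied standard error 0.89, Cuffdiff q = 0.00333). Its locus on chromosome 16, 17572111 to 17576764, lies 5 bp from that of the purinergic receptor gene P2rx6, which was listed at 11.6 and 13.5 FPKM. The GENCODE M21 annotation (GRCm38) has the 2 genes overlapping on opposite strands. The protocol is not described as marking strand, so reads of an overlap cannot be assigned to either gene. The lysosomal member Slc7a14 was listed at 0.602 and 0.465 FPKM without being called, and Slc7a3 at 0.446 and 0.309 FPKM had no test.

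Among the heteromeric carriers 1 of 3 tested light chains was called, against 13.5% of all tested genes. The heavy chain Slc3a2 (4F2hc, CD98), which brings the light chains to the cell surface, was the most abundant member in both lines, with 198 FPKM in STHdhQ7 against 146 FPKM in STHdhQ111 (the authors' q = 0.717). Slc7a6 (y+LAT2), which exchanges intracellular arginine for neutral amino acids, rose from 10.6 to 24.0 FPKM. The authors' deposited table gives it a log2 fold change of 1.18 (implied standard error 0.39, Cuffdiff q = 0.0202), and 2.27-fold is the smallest change among the called members. It lies on chromosome 8 at 108692775 to 108722604, and the row for Slc7a6os, 1733 bp away, was listed at 12.8 and 19.4 FPKM without being called. Slc7a5 (LAT1), the main importer of leucine and other large neutral amino acids in dividing cells, was listed at 24.1 and 25.5 FPKM (the authors' q = 0.987).

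The remaining light chains were scarce. Slc7a7 (y+LAT1) was listed at 0.779 and 0.134 FPKM with an implied standard error of 41.5 on the log2 scale, so its difference is without a usable error. Its locus overlaps that of the mitochondrial gene Oxa1l (17.9 and 21.4 FPKM) on the opposite strand. Slc7a8 (LAT2) was listed at 0.0720 and 0.366 FPKM, without a test. The other heavy chain, Slc3a1 (rBAT), which pairs with Slc7a9 in kidney, was listed at 0.134 and 0.181 FPKM, and Slc7a9 at 0 in both. Slc7a10, Slc7a12, Slc7a13 and Slc7a15 were each under 0.02 FPKM in both lines.

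**Figure D3:**
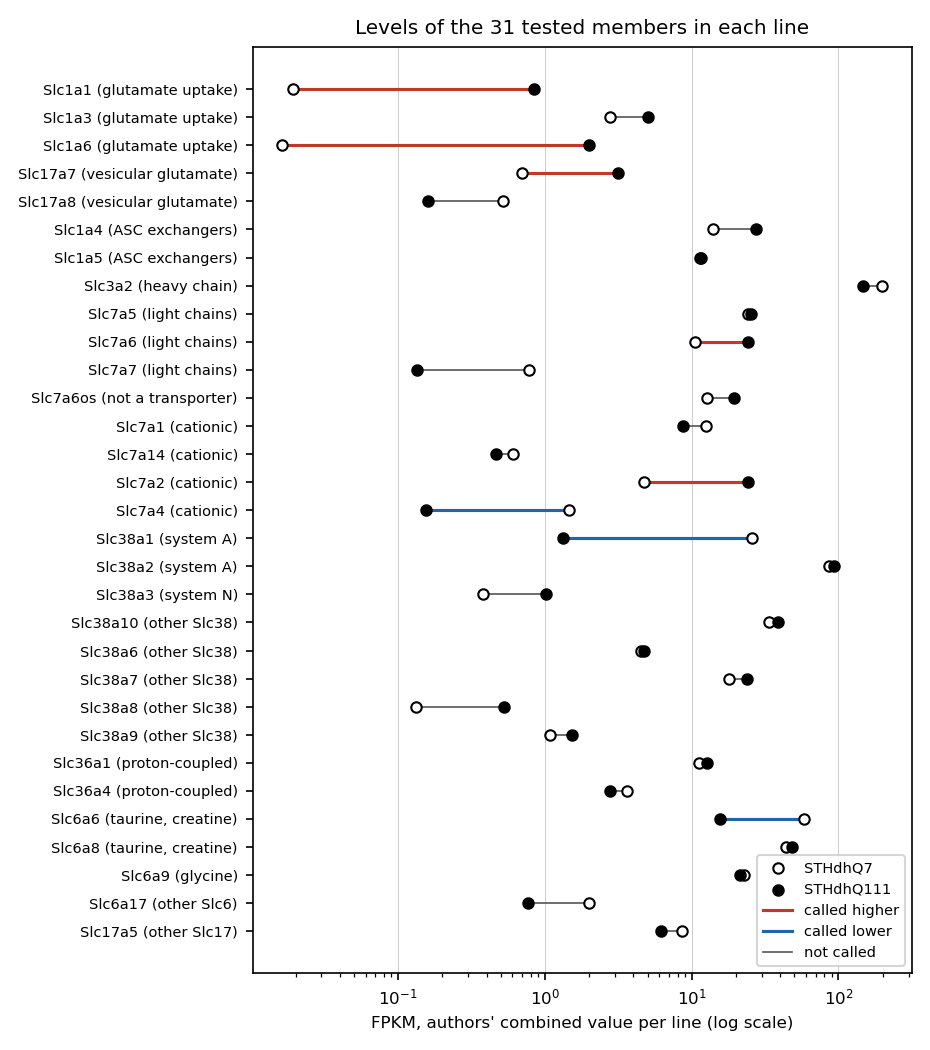
FPKM on a log scale for the 31 tested members, grouped by role, in STHdhQ7 (open) and STHdhQ111 (filled), with the line between them coloured where the gene was called. Slc38a1 and Slc6a6 fall from over 25 FPKM, Slc7a2 and Slc7a6 rise to about 24 FPKM, and Slc1a1 and Slc1a6 rise from near 0.

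The neutral exchangers of the ASC type, which swap alanine, serine, cysteine and in part glutamine, were both abundant. Slc1a4 (ASCT1), which carries serine, had 13.995 FPKM in STHdhQ7 and 27.35 FPKM in STHdhQ111. Its log2 fold change of 0.97 in the authors' deposited table (implied standard error 0.38) did not pass the threshold (Cuffdiff q = 0.0712). Slc1a5 (ASCT2), the glutamine exchanger of proliferating cells, was listed at 11.6 and 11.5 FPKM, with a log2 fold change of -0.01 in the authors' deposited table (implied standard error 0.41).

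Of the sodium and chloride coupled Slc6 family, 4 of 19 genes had a test and 1 of these 4 was called, against 13.5% of all tested genes. Slc6a6 (TauT), which takes up taurine and is tied to cell volume regulation, fell from 57.8 to 15.6 FPKM, 3.70-fold. It lies on chromosome 6 at 91634061 to 91709057, and the authors' deposited table puts its log2 fold change at -1.89 (implied standard error 0.38, Cuffdiff q = 1.44e-05). Among the 68 members it stood 3rd in STHdhQ7 and 12th in STHdhQ111. The creatine transporter Slc6a8 was listed at 43.9 and 47.9 FPKM (the authors' q = 0.972), and the glycine transporter Slc6a9 (GlyT1) at 22.8 and 21.5 FPKM (the authors' q = 0.985). The locus of Slc6a9 overlaps that of Ccdc24, which was listed at 4.09 and 2.09 FPKM. In the GENCODE M21 annotation (GRCm38) it also overlaps B4galt2 on the opposite strand, which was listed at 13.7 and 10.5 FPKM.

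Slc6a17, a vesicular carrier of neutral amino acids in neurons, was listed at 2.00 and 0.764 FPKM. A log2 fold change of -1.39 in the authors' deposited table (implied standard error 0.53) left it just outside the threshold (Cuffdiff q = 0.0591). Slc6a15, a related carrier of branched-chain amino acids in brain, was at 0.104 and 0.00487 FPKM and had no test. The proline transporter Slc6a7 was at 0.0738 and 0.266 FPKM, also untested, and Slc6a14, Slc6a18, Slc6a19, Slc6a20a, Slc6a20b and Slc38a11 were under 0.1 FPKM in both lines.

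Several carriers of GABA, glycine and monoamines were near absent in both lines. The GABA transporter Slc6a11 (GAT3) was listed at 0.00702 and 0.00434 FPKM, and Slc6a13 (GAT2) at 0 and 0.0166 FPKM. The betaine and GABA transporter Slc6a12 was listed at 0 in STHdhQ7 and 0.171 FPKM in STHdhQ111. The noradrenaline transporter Slc6a2 was at 0.137 and 0.0272 FPKM, the dopamine transporter Slc6a3 at 0.0307 and 0.0209 FPKM, and the serotonin transporter Slc6a4 at 0.0518 and 0.154 FPKM. The neuronal glycine transporter Slc6a5 was listed at 0 and 0.00663 FPKM. None of these 7 genes had a test.

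The Slc36 carriers and the remaining Slc17 genes held no called member by the authors' Cuffdiff test, and 0 of their 3 tested genes had an unadjusted p under 0.05. Slc36a1 (PAT1), which exports small amino acids from lysosomes, was listed at 11.2 and 12.7 FPKM (the authors' q = 0.946), and Slc36a4 at 3.63 and 2.77 FPKM. Slc36a2 and Slc36a3 were under 0.15 FPKM. Slc17a5 (sialin), the lysosomal exporter of sialic acid, was listed at 8.55 and 6.18 FPKM (the authors' q = 0.713). Slc17a9, which loads ATP into vesicles, was at 0.108 and 0.154 FPKM without a test, and the kidney and liver genes Slc17a1 to Slc17a4 were under 0.02 FPKM.

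Over all tested members, 15 of the 23 uncalled genes lay within 1.5-fold and 5 lay beyond 2-fold (Slc7a7, Slc38a8, Slc17a8, Slc38a3 and Slc6a17), each of these 5 with under 1 FPKM in a line. The implied standard error of the log2 fold change had a median of 0.46 over the members and a minimum of 0.37, and the smallest called change among all genes of the table was 2.03-fold. Among the 16 tested members with a mean of 10 FPKM or more, 4 were called (25.0%, against 9.93% of all tested genes at that level). Among the 15 below it, 4 were called (26.7%, against 17.1%).

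**Figure D4:**
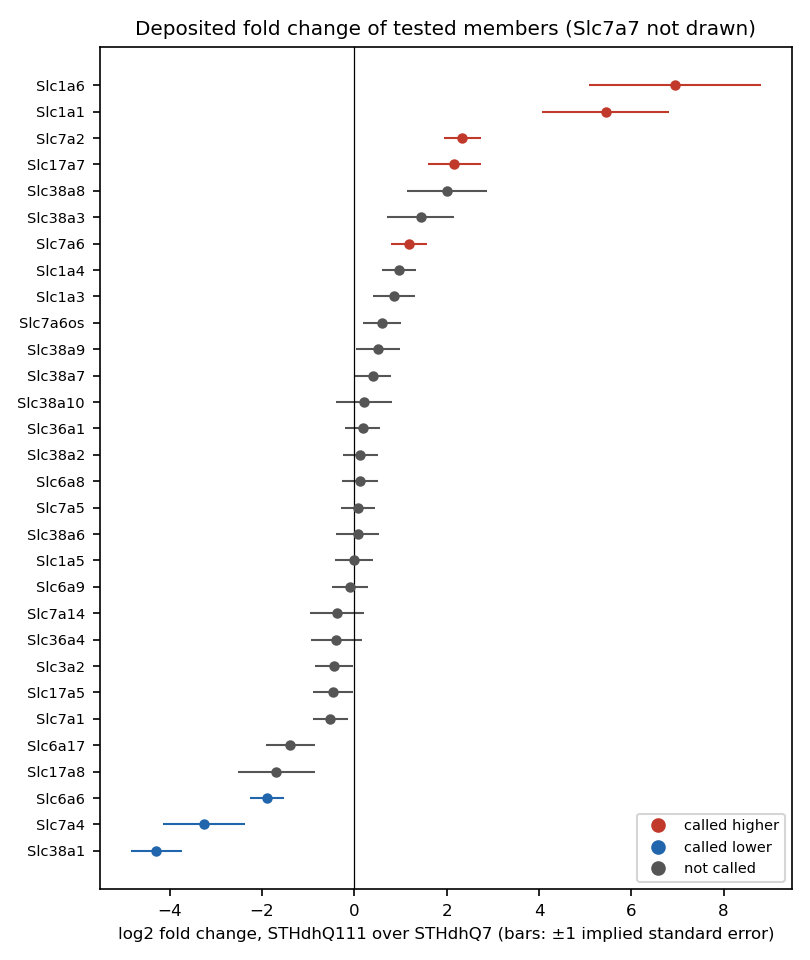
Log2 fold change, STHdhQ111 over STHdhQ7, of 30 tested members in the authors' deposited table, with bars of 1 implied standard error on each side. Slc7a7 is not drawn because its error is 41.5, and the bars of Slc1a6 (1.86) and Slc1a1 (1.38) are the widest shown.

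The next lists hold enzymes that make or use the carried amino acids, and their counts stand beside 13.5% called among all tested genes. The medians given for these lists are on the log2 ratio scale above, where all tested genes stood at -0.05. Of 9 tested enzymes of glutamate, glutamine and aspartate, 1 was called higher (11.1%, against 6.35% of all tested genes) and none lower. This was the asparaginase gene Aspg, which rose from 0.0422 to 0.598 FPKM (median of the list 0.06). Glud1 (glutamate dehydrogenase) was listed at 98.5 and 108 FPKM and Got2 (mitochondrial aspartate aminotransferase) at 114 and 93.8 FPKM. Of 9 tested serine and glycine enzymes, 2 were called (22.2%), both lower (median -0.47), against 7.17% of all tested genes called lower. Psat1, the second step of serine synthesis, fell from 92.5 to 34.7 FPKM (the authors' q = 0.00371), and Gldc, the glycine decarboxylase, fell from 1.25 to 0.0910 FPKM (the authors' q = 0.00137). Phgdh, the first step, was listed at 101 and 75.8 FPKM without being called, and Shmt2 at 45.9 and 36.9 FPKM. By the authors' Cuffdiff test none of the 12 tested proline, ornithine and arginine enzymes was called (1 had an unadjusted p under 0.05, median -0.16), with Ass1 at 218 and 207 FPKM and Aldh4a1 at 52.3 and 85.5 FPKM. None of the 10 tested branched-chain, cysteine and taurine enzymes was called by that test either (1 with an unadjusted p under 0.05, median -0.08), with Bckdha at 46.3 and 44.4 FPKM and the taurine synthesis enzyme Csad at 28.4 and 24.8 FPKM.

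Among 5 tested genes of GABA and monoamine metabolism, 2 were called lower and 1 higher (median -0.07). That is 60%, against 13.5% of all tested genes, and 7 of the 12 genes listed had no test. Abat, the GABA transaminase, fell from 1.31 to 0.0784 FPKM (the authors' q = 0.00113), and Tph2, of serotonin synthesis, was listed at 0.621 and 0 FPKM (the authors' q = 0.00414). Abat and Tph2 lay under 0.5 FPKM in STHdhQ111, so they had a test only through STHdhQ7. Maoa, the monoamine oxidase, rose from 20.3 to 64.7 FPKM (the authors' q = 0.000274). Aldh5a1, which acts after Abat in GABA breakdown, was listed at 1.73 and 1.63 FPKM. Beside the uncalled creatine transporter Slc6a8, the creatine kinase Ckb fell from 67.1 to 8.61 FPKM (the authors' q = 4.14e-10) and the mitochondrial kinase Ckmt1 rose from 35.5 to 74.1 FPKM (the authors' q = 0.0496). The other tested genes of that list (median 0.36) were Gamt (11.5 and 12.1 FPKM) and Ckm (0.171 and 0.548 FPKM).

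Of the 5 tested glutamate, GABA and glycine receptor genes, 2 were called, both lower (median -0.78). That is 40%, against 7.17% of all tested genes called lower. The AMPA receptor gene Gria3 fell from 1.81 to 0.362 FPKM (the authors' q = 0.00746), and the kainate receptor gene Grik5 fell from 21.0 to 6.36 FPKM (the authors' q = 0.000469). Gabbr1 was listed at 3.48 and 1.82 FPKM and Glrb at 2.44 and 2.11 FPKM, and 31 of the 36 receptor genes had no test.

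The lists of genes that sense amino acid supply also stand beside 13.5% called among all tested genes. Of 23 tested genes of amino acid sensing at the lysosome, 1 was called in each direction (8.70% in all, median -0.00162). Gatsl3, later named Castor1, a cytosolic arginine sensor, rose from 2.91 to 13.6 FPKM (the authors' q = 0.000104). Rragb, a Rag GTPase, fell from 5.03 to 0.271 FPKM (the authors' q = 1.37e-05), while Rraga was listed at 56.9 and 53.1 FPKM and Lamtor2 at 119 and 119 FPKM. Of 15 tested genes of the amino acid response, 2 were called (13.3%), both lower (median -0.24). Of all tested genes 7.17% were called lower. Nupr1, a stress-induced chromatin protein, fell from 268 to 55.8 FPKM, and Stc2, a secreted glycoprotein, fell from 3.82 to 0.310 FPKM. Ddit3 was listed at 359 and 438 FPKM and Atf5 at 236 and 157 FPKM. None of the 23 tested genes of the aminoacyl-tRNA synthetases and their scaffold was called by the authors' Cuffdiff test, and 0 had an unadjusted p under 0.05. Their median was -0.10, with 17 of 23 below 0, against 6949 of 12740 among all tested genes. Aars was listed at 121 and 126 FPKM and Sars at 116 and 108 FPKM.

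Of 14 tested genes for transporters of other families and their partners, 2 were called, both higher (median 0.16). That is 14.3%, against 6.35% of all tested genes called higher. Slc43a3, a purine nucleobase carrier related to the leucine carriers Slc43a1 and Slc43a2, rose from 0.185 to 38.6 FPKM, or by 7.71 on the log2 scale of the authors' deposited table (implied standard error 0.61). Slc29a4, a plasma membrane monoamine transporter, rose from 2.54 to 8.16 FPKM (the authors' q = 0.00405). Bsg (basigin, a chaperone of monocarboxylate carriers) was listed at 457 and 967 FPKM without being called (the authors' q = 0.128), and the lysosomal histidine carrier Slc15a4 was listed at 19.0 and 15.0 FPKM.

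**Figure D5:**
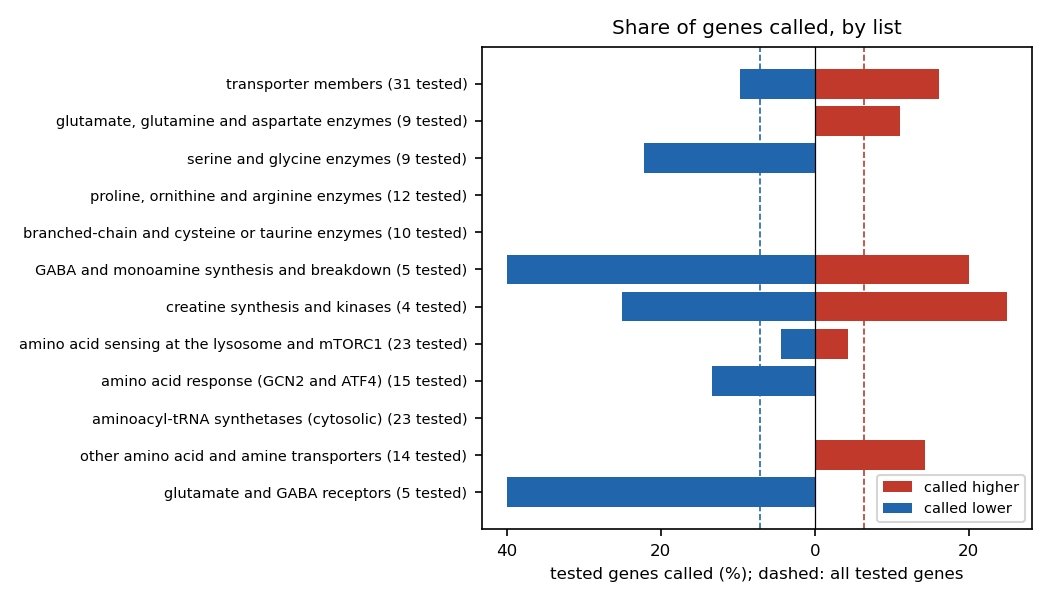
Share of tested genes called lower (left) and higher (right) in STHdhQ111, in percent, for the transporters and each list of related genes, with dashed lines at the shares over all tested genes (7.17% and 6.35%). The transporters stand at 9.68% lower and 16.1% higher, and several of the longest bars rest on only 4 or 5 tested genes.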

How the data were processed

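Per the labels' protocols, libraries were made from polyadenylated RNA with random priming. The submitters' processing notes name TopHat (1.4.0), Bowtie (0.12.7), Cufflinks (2.0.2), Cuffdiff and the mm9 build. Annotation, options and scaling were not given in the sources used here. Per the file headers, the deposited table has 1 FPKM per line over all replicates, and the authors' log2 fold change, statistic, p-value and q-value for each gene. Nothing in the labels says that replicates came from separate cultures, so these p-values may measure technical spread only.

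No test of the present work was possible on 1 combined value per line. Adjusting the deposited p-values over tested genes by Benjamini-Hochberg gave the deposited q-values to within 2.2e-06 (checked), and implied standard errors are the deposited log2 fold change divided by the statistic. Locus starts were raised by 1, because end minus start equalled the RefSeq length for 7132 of 20606 matched symbols, against 453 with 1 added.

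Members, role groups and lists of related genes were chosen with earlier results of these data known. All tested members are named, with full statistics for called ones. Untested members are named where they carry glutamate, GABA, glycine or monoamines. Other untested members named, and the neighbours Scaf11, Amigo2, P2rx6, Oxa1l, Ccdc24 and B4galt2, were chosen after their values were seen. From each list of related genes the called members and the 2 uncalled members with the highest mean are named. Some genes that the rules for members and named genes give are not reported here. Promoter sequences are RefSeq's (GRCm38.p6). The adjustment step was tested on simulated data. Python 3.11.15, numpy 2.4.6 and pandas 2.3.3 were used.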

Additional observations from a re-analysis of the deposited data

How the results depend on the processing

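Alternatives were the threshold, the adjustment, a 4-fold minimum, filters on low values, recentring and the pseudocount. No direction of a called member reversed, but only recentring, by a log2 median of -0.05, could have changed one. The other settings leave the sign of a fold change as it is. The 5 members called higher became 1 (Slc7a2) with a Bonferroni adjustment, under which Slc7a4 also lost its call, and 3 when 0.5 FPKM was required in both lines, a filter that by construction removes Slc1a1, Slc1a6 and Slc7a4. They became 4 when the adjustment covered only genes at 1 FPKM or more in either line, which by construction leaves out Slc1a1. The count of members called lower stayed within 1.5 times of 3 under each setting. Of all tested genes, 7.17% were called lower, and 2.13% with the Bonferroni adjustment. Called higher were 6.35% of all tested genes, and 2.4% with the Bonferroni adjustment. With 0.5 FPKM required in both lines, 4.64% of the genes kept were called higher. With the adjustment over genes at 1 FPKM or more in either line, 6.37% of those genes were called higher. Slc7a6 lost its call at a q threshold of 0.01 (q = 0.0202), and Slc6a6 and Slc7a6 do not reach 4-fold. Slc1a4 and Slc6a17 were called at a threshold of 0.1. The median log2 ratio of 0.12 moved by less than 0.1 under each setting, also without Slc7a6os, a setting chosen after seeing the data. Leaving out a replicate was not run, and no paired analysis was possible because the table holds 1 combined value per line.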
